A study of Mus musculus with 6 samples.

Results

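The B cell identity genes described here are Cd79a, Cd79b, Ms4a1, Pax5, Ebf1, Blk, Fcer2a, Cr2 and Cd22, chosen by name as markers of the B lymphocyte lineage. All 9 were present among the 17744 genes of the full table. They were measured by RNA-seq in mouse splenic CD8 T cells, gated on CD45, CD3 and CD8a, in 3 control libraries and 3 libraries from the group labelled fus irradiation, called ultrasound libraries here after the focused ultrasound of the series title. The controls carry the genotype entry wt and the treatment entry control, and in the ultrasound group both entries read fus irradiation. Strain, age, sex, ultrasound dose and the interval to sampling are not given in the sources used here. Nothing in the labels says that the 3 libraries of a group came from separate animals, so p-values measure the spread between these libraries only.

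B cells recognise antigen through membrane immunoglobulin, which signals through the CD79A and CD79B chains and Src family kinases such as BLK. EBF1 and PAX5 are the transcription factors that establish and hold the lineage, and they switch on many of the surface proteins by which B cells are recognised. The spleen is rich in B cells, both follicular cells with high FCER2 (CD23) and marginal zone cells with high CR2 (CD21). A CD3+ CD8a+ gate is designed to leave B cells out, so these genes report on RNA that the gate does not select for.

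Promoter sequences are shown because EBF1 is a known activator of several of the 9 genes. Whether EBF1 had a part in the values of these libraries was not tested. RefSeq start sites of build GRCm38.p6 matched 6 members, with 9 windows of 300 bases around a start in all. The EBF palindrome is TCCC and GGGA with any 2 bases between them. Searched on both strands, it was found in 1 of the 9 member windows, against 0.904% of 32851 windows of all genes. Some of the 9 windows belong to the same gene, and 1 match is too few to compare with that share. Only exact matches were sought, so a window without one may still hold a site that departs from the palindrome. That window was the one of Cd22, where the match begins at position -49 from the start. The shorter core CCCNNGGG was also found in 1 of the 9 member windows, inside the same Cd22 match, against 13.7% of all windows. The octamer ATTTGCAT, bound by OCT factors, was in none of the member windows and in 1.74% of all. The 250 bases before the start follow in the direction of transcription, with the EBF palindrome in capitals. Cd22 is the member with the exact match (chr7:30879029-30879278, minus strand). Cd79a is the member with the highest level (chr7:24897247-24897496, plus strand). Cr2 is the member lowest in ultrasound 1 relative to controls (chr1:195176720-195176969, minus strand). For Cd22 and Cr2 the start used lies inside the annotated span of the gene.
Cd22: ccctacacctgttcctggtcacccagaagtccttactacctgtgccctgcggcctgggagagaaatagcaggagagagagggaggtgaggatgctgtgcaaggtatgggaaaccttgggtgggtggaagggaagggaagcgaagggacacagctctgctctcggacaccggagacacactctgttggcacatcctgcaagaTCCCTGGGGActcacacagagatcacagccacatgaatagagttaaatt
Cd79a: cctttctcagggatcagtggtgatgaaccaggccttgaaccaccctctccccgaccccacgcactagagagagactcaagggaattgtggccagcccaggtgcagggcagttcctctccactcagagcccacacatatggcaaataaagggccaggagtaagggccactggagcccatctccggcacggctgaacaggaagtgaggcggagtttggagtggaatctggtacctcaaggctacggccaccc
Cr2: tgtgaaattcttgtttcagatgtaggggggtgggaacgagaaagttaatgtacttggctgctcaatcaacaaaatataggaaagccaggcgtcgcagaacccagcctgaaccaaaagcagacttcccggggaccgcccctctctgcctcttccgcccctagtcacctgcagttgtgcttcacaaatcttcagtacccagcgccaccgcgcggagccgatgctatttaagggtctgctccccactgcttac

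Levels are given in FPKM, fragments scaled to gene length and library size, so genes can be compared with each other. The libraries hold 35024080 to 38113103 reads, recovered from the deposited values. The sorting target was present in every library: the 12 T cell genes together reached 3218 to 3399 FPKM in controls and 2829 to 3650 FPKM in ultrasound libraries, with Cd8b1 at 438 to 562 FPKM. Ultrasound 1 differed from ultrasound 2 and ultrasound 3 in much of the transcriptome, and its values are therefore given separately. Among the 10655 genes tested, 864 passed the test between groups, and 5727 passed without ultrasound 1. Leaving out control 2, control 3, ultrasound 2 or ultrasound 3 left 0 genes past the test, so each call over all 6 libraries named here is lost in those fits.

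All 9 B cell genes placed the ultrasound libraries alike around the controls, while control 2 and control 3 changed places between genes. Ultrasound 1 lay below every control for 9 of 9 genes, where 23.1% of all genes tested did. Ultrasound 2 and ultrasound 3 lay above every control for 9 of 9, where 45.9% of all genes tested did. Not one of the 9 had all 3 ultrasound libraries above every control, where 25.9% of all genes tested did. The low ultrasound 1 and the high ultrasound 2 and ultrasound 3 occurred together for 9 of 9 members and for 7.34% of all genes tested. Rescaling with median-of-ratios size factors or upper-quartile factors left both counts at 9 of 9. Ultrasound 2 was above ultrasound 3 for 9 of 9. Control 1 was the highest control for 9 of 9, where 36% of genes tested had their highest control value there. In bulk RNA, fewer cells of a type and less RNA per cell cannot be told apart.

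The antigen receptor chains Cd79a and Cd79b had the highest FPKM values. Cd79a (NCBI Gene 12518, chr7:24897497-24901858) measured 126, 78.3 and 79.9 FPKM in control 1, 2 and 3, and 65.2, 339 and 299 FPKM in ultrasound 1, 2 and 3. Cd79b (NCBI Gene 15985, chr11:106311341-106314562) measured 73.0, 48.9 and 50.5 FPKM in the controls and 38.1, 230 and 203 FPKM in the ultrasound libraries. Both chains were therefore highest in ultrasound 2 and lowest in ultrasound 1, and the ultrasound group reached past the controls on both sides. Relative to the control mean, Cd79a stood at 0.688-fold in ultrasound 1, 3.58-fold in ultrasound 2 and 3.15-fold in ultrasound 3. The ratios for Cd79b were 0.663, 4.0 and 3.54.

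Blk, a Src family kinase that phosphorylates the receptor chains, followed them. Blk (NCBI Gene 12143, chr14:63372837-63417187) measured 16.4, 11.7 and 12.2 FPKM in the controls and 7.99, 42.1 and 39.1 FPKM in the ultrasound libraries. Its level in ultrasound 2 was 3.13 times the control mean, and its level in ultrasound 1 was 0.594 times that mean.

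Of the 4 other surface receptors, Fcer2a stood farthest above the control mean in ultrasound 2 and ultrasound 3, and Cr2 farthest below it in ultrasound 1. Fcer2a, which encodes the low-affinity IgE receptor CD23 of follicular B cells (NCBI Gene 14128, chr8:3680280-3694174), measured 7.80, 6.0 and 6.25 FPKM in the controls and 4.40, 32.1 and 26.2 FPKM in the ultrasound libraries. Cd22, an inhibitory lectin that binds sialic acid (NCBI Gene 12483, chr7:30865404-30880342), measured 45.1, 29.2 and 27.2 FPKM and then 19.3, 92.9 and 80.8 FPKM. Ms4a1, which encodes CD20 (NCBI Gene 12482, chr19:11249679-11266149), measured 37.5, 24.9 and 23.3 FPKM and then 14.3, 55.6 and 42.3 FPKM. For these receptors, too, ultrasound 2 and ultrasound 3 were above and ultrasound 1 was below all controls, but the distance differed: ultrasound 2 stood at 4.81 times the control mean for Fcer2a and at 1.95 times for Ms4a1. Cr2, which encodes the complement receptors CD21 and CD35 of mouse B cells (NCBI Gene 12902, chr1:195136811-195176880), measured 10.9, 7.75 and 6.61 FPKM in the controls and 3.96, 18.9 and 12.6 FPKM in the ultrasound libraries. Its highest control and ultrasound 3 differed by less than ultrasound 2 and ultrasound 3 did.

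Of the lineage transcription factors, Pax5 lay near Cr2 in FPKM in the controls and Ebf1 was the lowest of the members in FPKM. Pax5 (NCBI Gene 18507, chr4:44524748-44710694) measured 11.7, 7.96 and 7.50 FPKM in the controls and 5.75, 25.7 and 19.96 FPKM in the ultrasound libraries. Ebf1 (NCBI Gene 13591, chr11:44618100-45008096) measured 0.494, 0.328 and 0.280 FPKM in the controls and 0.215, 0.783 and 0.698 FPKM in the ultrasound libraries. Ebf1 also had ultrasound 1 below and ultrasound 2 and ultrasound 3 above the controls although it never reached 1 FPKM, and it rested on 302 to 1173 reads per library. It did not pass the filter on low values and was not tested in the main analysis. That filter is set in FPKM and so depends on the gene length used as well as on reads. With a filter of at least 10 reads in every library Ebf1 was tested, with a difference of 0.18 (limma adjusted p 0.452).

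**Figure D1:**
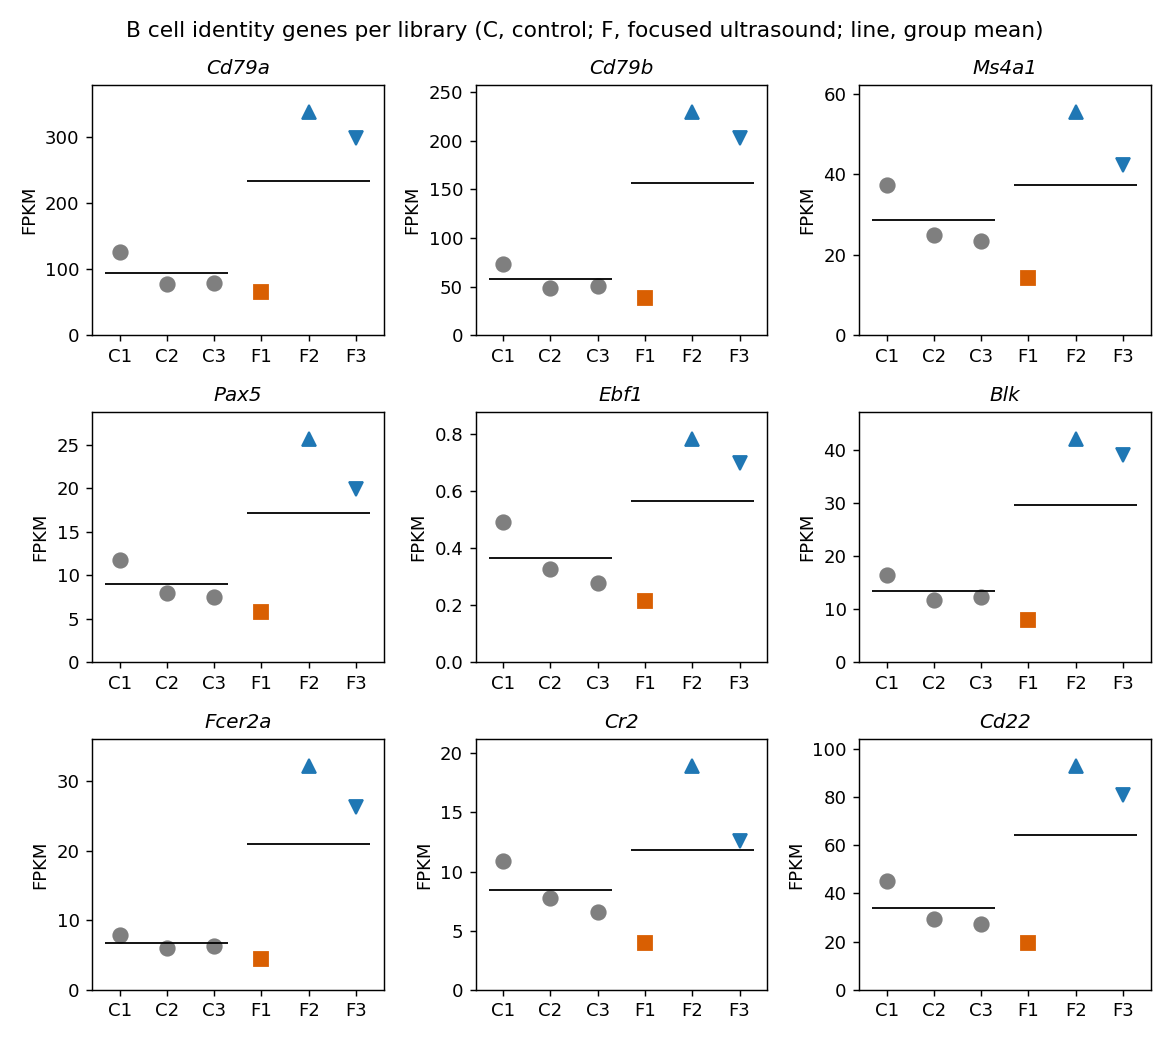
FPKM (vertical axis, linear from 0) of the 9 B cell identity genes in each of the 6 libraries (C1 to C3, controls; F1 to F3, ultrasound; lines, group means, n = 3 each). In every panel F1 lies below the 3 controls and F2 and F3 above them, as for Cd79a with 65.2 FPKM in F1 and 339 FPKM in F2.

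The order of the members by FPKM was nearly fixed across libraries. Cd79a, Cd79b, Cd22, Ms4a1 and Blk held ranks 1 to 5 in all 6 libraries, and Ebf1 held rank 9. The control levels of Cd22 (33.8 ± 9.80 FPKM) and Ms4a1 (28.6 ± 7.74 FPKM) overlapped, as did those of Pax5 (9.07 ± 2.33) and Cr2 (8.40 ± 2.20; SD, n = 3 each). Within each of the 6 libraries, however, Cd22 was above Ms4a1 and Pax5 above Cr2. Fcer2a was the exception in rank: it was at rank 8 in each control, at rank 7 in ultrasound 1 and at rank 6 in ultrasound 2 and ultrasound 3, where it passed Pax5 and Cr2.

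Together the 9 genes took 0.0805%, 0.0537% and 0.0515% of all reads in control 1, 2 and 3. They took 0.0367%, 0.184% and 0.154% in ultrasound 1, 2 and 3. Set against the reads of the 12 T cell genes, the members stood at 13.7%, 8.63% and 8.29% in the controls and at 7.08%, 27.6% and 24.6% in the ultrasound libraries. Ultrasound 1 was below all controls on this measure as well, by a smaller margin, and 11 of 12 T cell genes were also below every control there.

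The comparison of the groups asked whether these genes differed between ultrasound and control. With all 6 libraries, limma on log2(FPKM + 1), a scale that understates the change of low genes, called 0 of the 8 members tested at an adjusted p of 0.05, where 6.55% of all genes tested were called higher and 1.56% lower. At an unadjusted p under 0.05 the members numbered 0 of 8, against 31.2% of all genes tested in either direction. All 8 fitted differences were positive, with a median of 0.73 beside 0.09 over all genes tested. Fcer2a had the largest, 1.15 with standard error 0.64 (limma adjusted p 0.254), and Ms4a1 the smallest, 0.21 with standard error 0.48 (limma adjusted p 0.776). Voom on recovered reads also called 0 of 8. In the authors' deposited table, 0 of 9 members had q under 0.05, where 12.3% of its genes did, and 3 of 9 had p under 0.05, where 26.1% of its genes did. The fold changes of the authors' deposited table ran from 1.19 for Ms4a1 to 2.85 for Fcer2a, with q from 0.107 to 0.750.

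This outcome rested on ultrasound 1. Without ultrasound 1, limma called 8 of the 8 members higher, where it called 34.1% of all genes tested higher and 19.7% lower. The differences then ran from 0.77 for Ms4a1 (standard error 0.23, limma adjusted p 0.0369) to 1.97 for Fcer2a (standard error 0.13, limma adjusted p 0.000181). Cd79b stood at 1.92 and Cd79a at 1.77. Ultrasound 1 alone was then set against the 3 controls by giving ultrasound 2 and ultrasound 3 a term of their own. In that fit 0 of 8 members passed an adjusted p of 0.05, where 0.441% of all genes tested passed as lower, and 5 of 8 had an unadjusted p under 0.05, where 22.1% of all genes tested did in either direction. The differences were all negative, from -0.50 for Cd79a (limma adjusted p 0.368) to -0.92 for Ms4a1 (limma adjusted p 0.149). They rest on 1 library and on a spread taken from the others.

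**Figure D2:**
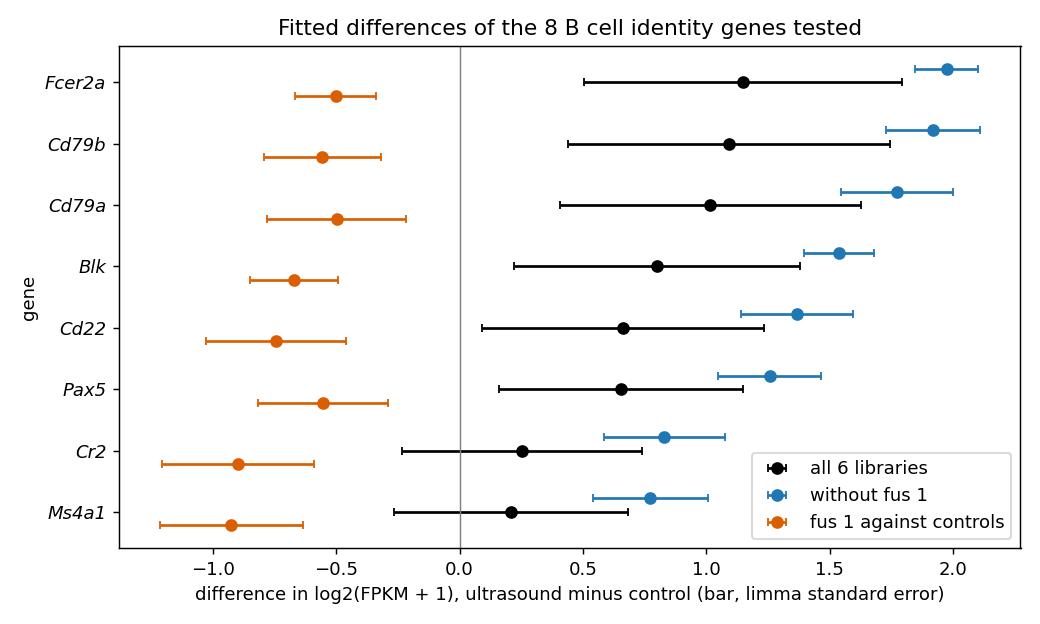
Difference in log2(FPKM + 1), ultrasound minus control (horizontal axis), for the 8 members tested, with limma standard errors as bars. Black, all 6 libraries; blue, without ultrasound 1 (fus 1); orange, ultrasound 1 against the controls. For Fcer2a the values are 1.15, 1.97 and -0.50.

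The members did not keep one ratio to each other. In the controls their levels relative to the control mean lay close together, with an SD over the 9 genes of 0.05 to 0.10 on the log2 scale. This SD was 0.19 in ultrasound 1, 0.44 in ultrasound 2 and 0.52 in ultrasound 3. For the 12 T cell genes it was 0.04 to 0.07 in the controls and 0.13, 0.25 and 0.25 in the ultrasound libraries. In ultrasound 3 the members ran from 1.48 times the control mean for Ms4a1 to 3.92 times for Fcer2a. The measure was chosen after the values were seen. Each control is also part of the control mean, which lowers the SD of the controls beside that of the ultrasound libraries. The SD therefore cannot show by itself that the ratios differ between the groups.

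Ratios of 2 members within a library do not depend on library scaling. They were also examined after the values were seen. Of the 36 pairs, 19 separated the 3 ultrasound libraries from the 3 controls, or 52.8%, beside 28.8% of the 66 pairs of T cell genes and 36.2% of all pairs of tested genes. By this definition ultrasound 1 lay on the same side as ultrasound 2 and ultrasound 3 in each of the 19. Of the 19 pairs, 13 included Ms4a1 or Cr2, each as the gene that was lower in ultrasound libraries relative to its partner. With the pair of these 2 genes left aside, Ms4a1 separated with 7 of 7 partners and Cr2 with 6 of 7. The pairs share genes and are not independent, so 1 gene can account for several of them. The Fcer2a to Cr2 ratio of FPKM values was 0.719, 0.775 and 0.946 in control 1, 2 and 3. It was 1.11, 1.70 and 2.09 in ultrasound 1, 2 and 3, so that Fcer2a exceeded Cr2 per length in the 3 ultrasound libraries and in no control. The Cd79b to Ms4a1 ratio was 1.95, 1.96 and 2.16 in the controls and 2.67, 4.14 and 4.81 in the ultrasound libraries. The exact two-sided permutation p was 0.1 for each of the 19 pairs, the smallest that 3 against 3 libraries allow, and 0.189 after Benjamini-Hochberg adjustment over the 36 pairs. Not one pair passed 0.05.

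Some pairs stayed close. The Cd79b to Cd79a ratio, of 2 chains that form 1 heterodimer, lay between 0.580 and 0.631 in the controls and at 0.585, 0.679 and 0.680 in the ultrasound libraries. The Cr2 to Ms4a1 ratio lay between 0.283 and 0.311 in the controls and between 0.278 and 0.340 in the ultrasound libraries, with both ranges overlapping. The Pax5 to Cd22 ratio overlapped too, at 0.261 to 0.276 and 0.247 to 0.298.

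**Figure D3:**
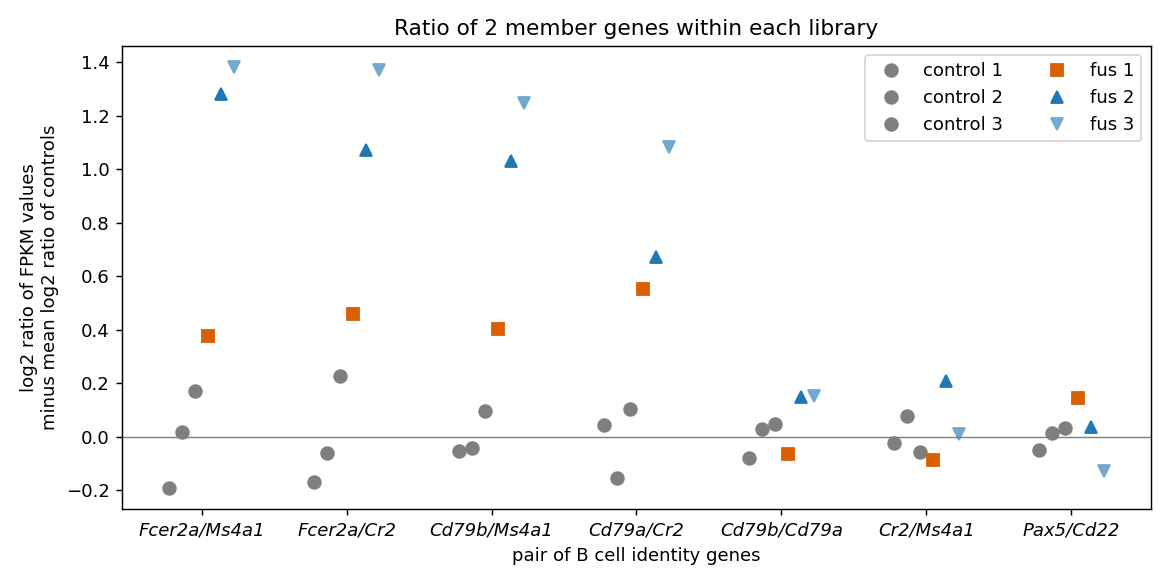
Log2 ratio of the FPKM values of 2 members within each library, minus the mean log2 ratio of the 3 controls (vertical axis), for 7 of the 36 pairs. In the 4 pairs on the left all ultrasound libraries (fus 1 to 3) lie above all controls, with Fcer2a/Cr2 ratios of 1.11 or more against 0.946 or less; in the 3 on the right the groups overlap.

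A wider set of 77 B lineage genes in 9 lists was read in the same way, of which 69 were in the table and 61 were tested. Immunoglobulin constant region genes were not analysed here. Limma called 11 of the 61, with 10 higher and 1 lower, where 8.11% of all genes tested were called in either direction. The median difference was 0.77, beside 0.09 over all genes tested. Without ultrasound 1 it called 53 higher and 2 lower, where it called 34.1% of all genes tested higher and 19.7% lower. Without control 2, control 3, ultrasound 2 or ultrasound 3 it called 0. In those fits 16 to 18 of 61 had an unadjusted p under 0.05, beside 1962 to 2154 of all 10655 genes tested. Ultrasound 1 was below every control for 31 of the 69 and above every control for 18, where the shares of all genes tested were 23.1% and 44.6%. It was below every control for 9 of 9 identity genes.

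Genes of antigen receptor signalling followed the members in part. In the signalling list, 8 of 14 genes were below every control in ultrasound 1 and above every control in ultrasound 2 and ultrasound 3. The share of all genes tested was 7.34%. Ultrasound 1 was above every control for 4 of 14, where it was for 44.6% of all genes tested. Limma called 2 of 14, both higher, where 6.55% of all genes tested were called higher. These 2 were Lyn, a Src family kinase, and Fcgr2b, the inhibitory Fc receptor, which myeloid cells also express. Lyn and Fcgr2b both went the other way from the members in ultrasound 1, Fcgr2b at 126 FPKM against 45.8 FPKM or less in controls. Lyn measured 23.4, 12.4 and 11.2 FPKM in the controls and 35.0, 44.1 and 55.0 FPKM in the ultrasound libraries, a log2 difference of 1.5 with standard error 0.29 (limma adjusted p 0.0337). The tetraspanin Cd81 (limma adjusted p 0.0447), from the antigen receptor list, and the myeloid and B cell factor Spi1 (limma adjusted p 0.0312) also rose, and both were above every control in ultrasound 1.

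In the list of other surface receptors 0 of 12 genes were called, and 2 had an unadjusted p under 0.05. Of all genes tested, 8.11% were called and 31.2% had an unadjusted p under 0.05. Fcmr, the Fc receptor for IgM, measured 15.8 FPKM in ultrasound 1 against 21.7 to 31.2 FPKM in controls, and 125 and 108 FPKM in ultrasound 2 and ultrasound 3 (limma adjusted p 0.279). It was below every control in ultrasound 1 and above every control in the other 2 ultrasound libraries, as the members were. The same held for 6 of the 12 genes of this list, Fcmr included, and for 7.34% of all genes tested. Fitted differences were positive for 11 of 12, and the lowest was that of Cd83, -0.51 (limma adjusted p 0.234). Of the transcription factor list 1 of 10 genes tested was called, Spi1. The list's coactivator Pou2af1, which works with OCT factors in B cells, had 0.50 (standard error 0.33, limma adjusted p 0.318). Of the marginal zone list 1 of 6 was called, the tetraspanin Cd9 (0.94, standard error 0.16, limma adjusted p 0.0311), with ultrasound 1 the highest library at 54.1 FPKM. Of the germinal centre list 0 of 5 were called, with 1 at an unadjusted p under 0.05. Of the immature B cell list 1 of 3 was called, Cd93 (limma adjusted p 0.0481), which myeloid and endothelial cells also express. The B-1 list had 0 of 2 called, also at an unadjusted p.

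Plasma cell genes differed from the identity genes in ultrasound 1. Of the 8 listed, 6 were above every control in ultrasound 1 and 1 was below, whereas 0 of the 9 identity genes were above, and 44.6% of all genes tested were above. Jchain, the joining chain of secreted IgA and IgM, measured 114, 98.7 and 67.1 FPKM in the controls and 271, 179 and 233 FPKM in the ultrasound libraries. All 3 ultrasound libraries exceeded all controls, and Jchain was highest in ultrasound 1, the library in which Cd79a was lowest. Its log2 difference was 1.29 with standard error 0.23 (limma adjusted p 0.0312). Limma called 4 of the 7 plasma cell genes tested higher: Jchain, the secretory factor Xbp1 (1.08, limma adjusted p 0.0297), the syndecan Sdc1 (1.0, limma adjusted p 0.0297) and Derl3, of endoplasmic reticulum protein disposal (1.54, limma adjusted p 0.0369). Irf4, which plasma cells and activated T cells express, fell by 0.70 (limma adjusted p 0.0304). Of all genes tested, 6.55% were called higher and 1.56% lower. Xbp1 is expressed in other cells too. The difference between plasma cell and identity genes in ultrasound 1 was not tested, since it rests on 1 library.

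**Figure D4:**
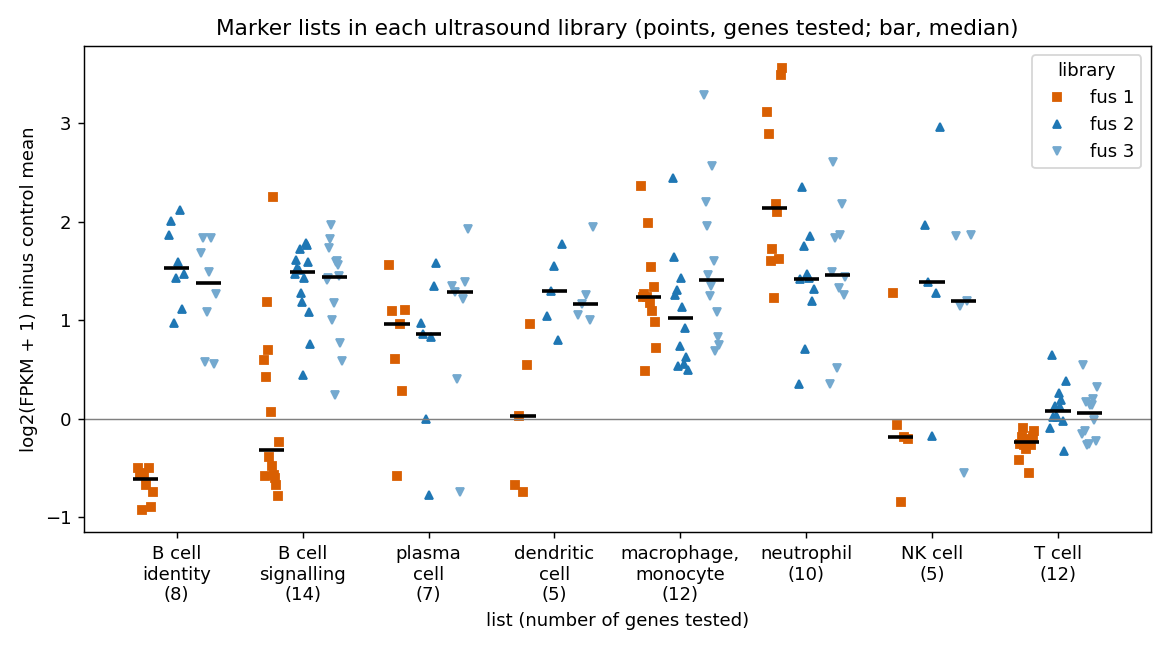
Log2(FPKM + 1) minus the control mean (vertical axis) for the tested genes of 8 marker lists in ultrasound 1, 2 and 3 (fus 1 to 3), with bars at list medians. The B cell identity list has medians of -0.61, 1.53 and 1.38, whereas the plasma cell list is at 0.96, 0.86 and 1.29 and the T cell list at -0.23, 0.08 and 0.06.

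Markers of other cells moved with the B cell genes in some libraries. Over all genes tested, 6.55% were called higher, and 44.6% were above every control in ultrasound 1. The macrophage and monocyte list had 5 of 12 genes called higher and summed to 413 to 887 FPKM in controls and 2039 to 3449 FPKM in ultrasound libraries, led by Lyz2. The neutrophil list had 4 of 10 called higher, with sums of 183 to 565 FPKM and 633 to 2242 FPKM, the highest in ultrasound 1. In ultrasound 1, 12 of 12 macrophage and 10 of 10 neutrophil genes were above every control, where 9 of 9 B cell identity genes were below. In control 1 these lists were also the highest among the controls, as the members were, with neutrophil genes at 565 FPKM against 189 FPKM or less. The dendritic cell list had 1 of 5 called higher, Cst3, with sums of 123 to 245 FPKM and 278 to 566 FPKM. In this list 4 of 9 genes were likewise below every control in ultrasound 1 and above in ultrasound 2 and ultrasound 3. So were 4 of the 12 T cell genes, the sorting target, and 7.34% of all genes tested. The NK cell list had 1 of 5 called higher, Klrb1c, with sums of 57.7 to 68.0 FPKM and 46.7 to 235 FPKM. CD4 T cell, erythroid and platelet lists had 0 called, with 2, 1 and 1 genes at an unadjusted p under 0.05. Their sums ran from 93.1 to 125, 83.2 to 133 and 1.05 to 2.77 FPKM in controls and from 114 to 148, 55.3 to 112 and 1.86 to 4.45 FPKM in ultrasound libraries. Not one gene of these lists was at 0 reads in any library, nor was any B cell identity gene. The part of these cells in the B cell values was not tested.

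Genes outside all lists were ranked by likeness to the members' mean profile, the mean of log2(FPKM + 1) minus control mean, which was 0.33, -0.15 and -0.19 in the controls and -0.61, 1.44 and 1.18 in the ultrasound libraries. Likeness was the root mean square difference over the 6 libraries, among 10441 genes. The closest was Ell3, an elongation factor for RNA polymerase II, with a difference of 0.08. Ell3 measured 3.45, 2.76 and 2.27 FPKM in the controls and 1.43, 8.68 and 7.55 FPKM in the ultrasound libraries. Snn, Scd1, Bcar3, Chst3, Kmo, Mycl, Gga2, Gzmk and Slc46a3 followed, with differences of 0.12 to 0.20. Limma adjusted p-values of the 10 ran from 0.251 to 0.535. Gzmk, which encodes a granzyme of T cells, was the one of these with the widest gap between ultrasound 2 and ultrasound 3, at 42.0 and 25.5 FPKM.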

How the data were processed

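RNA-seq values of 6 libraries were used. The submitters' processing notes name HISAT2, HTSeq, DESeq2, R 3.2.0 and build mm10. The annotation and strand setting are not given in the sources used here. The authors deposited FPKM per library, and, per the file headers, a signal (means of DESeq2 normalized counts), a fold change ratio, its log2, a p-value and a q-value for their own comparison. Their filtered table repeats rows of the full one and was not used.

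Groups came from sample titles. A gene entered the test when 3 libraries reached 1 FPKM, which 10655 did. Values of log2(FPKM + 1) were fitted in R 4.3.3 by limma 3.58.1 with trend and robust options, two-sided, with Benjamini-Hochberg adjustment over all of them and a threshold of 0.05. The files hold no counts, so the main test is on FPKM, with voom on recovered reads as an alternative. Whole reads were recovered from the FPKM values and the deposited group means: 100% of 42750 values under 200 reads lay within 0.05 of a whole number. Reads carry no molecular identifiers and are not independent molecules. Both steps were checked on simulated data. Promoters came from RefSeq, GRCm38.p6, the assembly of mm10. Python 3.11.15 with scipy 1.17.1 did the rest.

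The members and lists were chosen with earlier results of these data known. Named are all members, up to 4 genes of a list by mean FPKM, called list genes and the 10 genes most like the members. Some list genes are not reported here. Replicate numbers were not treated as pairs in the main test. The correlation between deviations from the group means was -0.04, 0.05 and 0.06 for numbers 1, 2 and 3. Since ultrasound 1 differs from ultrasound 2 and ultrasound 3 in much of the transcriptome, these values cannot show whether libraries were handled in pairs. Alternatives covered voom, scaling, filters, pseudocount, the robust option, a replicate block, each library left out and a term for ultrasound 2 and ultrasound 3.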

Additional observations from a re-analysis of the deposited data

How the results depend on the processing

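The count of 0 B cell identity genes called held under each alternative except without ultrasound 1, where 8 were called, so leaving out one library gave 0 to 8. The replicate block also gave 0 members, 0 wider B cell genes and 0 genes in all, with 3249 genes at an unadjusted p under 0.05. The 11 wider B cell genes called became 0 without a filter, 7 with median-of-ratios size factors, 2 when ultrasound 2 and ultrasound 3 had their own term, 19 in the authors' deposited table and 0 to 55 with one library left out. The 864 genes called in all became 0 without a filter, 468 with median-of-ratios size factors, 568 with voom, 150 with the term, 2179 in the authors' deposited table and 0 to 5727 with one library left out. Control 2, control 3, ultrasound 2 or ultrasound 3 left out each gave 0, with 1962, 2154, 2058 and 1998 genes at an unadjusted p under 0.05. Median-of-ratios scaling moved the median difference of all genes from 0.09 to -0.02 and the split from 698 higher and 166 lower to 280 and 188. Voom gave 318 and 250, upper-quartile factors 363 and 214. The 19 separated pairs became 19 to 32 with one library left out, the highest without ultrasound 1.

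With the term, which leaves ultrasound 1 against the controls, differences reversed for Cd79a (-0.50), Cd79b (-0.56), Ms4a1 (-0.92), Pax5 (-0.55), Blk (-0.67), Fcer2a (-0.50), Cr2 (-0.90) and Cd22 (-0.74). Without ultrasound 2 they reversed for Ms4a1 (-0.17) and Cr2 (-0.17), which ranged up to 0.77 and 0.83 with another library left out. For these reversals and counts the cause was not tested. Ebf1 could not be tested at the filter of 1 FPKM. Each member rests on 302 or more reads per library, and how depth affects its calls was not examined.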
